A study of Mus musculus with 2 samples.

Results

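The genes described here serve the entry of long-chain fatty acids into cells and their carriage inside them. They are Cd36, the fatty acid transport proteins Slc27a1, Slc27a2 and Slc27a4, and the fatty acid binding proteins Fabp1, Fabp2, Fabp4 and Fabp5. These 8 genes of 18193 named on the array were chosen from both transporter families with their ratios on these same arrays already known, so the values that follow describe the pools and support no claim about the choice. Every probe set annotated to 1 of them by symbol or gene ID was taken, 16 of 45101 on the array, and no probe set shared between several genes included a member.

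Total RNA came from livers of male mice that carried homozygous floxed Lpcat3 alleles (Lpcat3fl/fl, Flox/Flox) or the same alleles with an Albumin-Cre transgene (Lpcat3fl/fl Albumin-Cre, L-Lpcat3 KO). Lpcat3 encodes an enzyme that adds polyunsaturated acyl chains to lysophospholipids. The albumin promoter directs the recombinase to hepatocytes, so endothelial and Kupffer cells are taken to keep their floxed alleles intact. The controls carry the loxP sites without Cre. All mice were 12 weeks of age, ate chow and had food withdrawn for 6 hr. RNA from 5 livers was combined for each genotype and each pool was read on 1 array, so there are no replicates and no test, standard error or p-value is given. Values are MAS5 signals on a linear scale, and a difference is the log2 of the L-Lpcat3 KO signal over the Flox/Flox signal. Signals under 76.4, the median of all probe sets, were raised to that floor, and a gene is counted by its brightest probe set.

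Lpcat3 had a signal of 3310 in Flox/Flox against 1305 in L-Lpcat3 KO, 2.54-fold lower, by 1 probe set that need not lie in the deleted exon 3. The hepatocyte markers were the same within 1.5-fold in 13 of 13 measured genes, with Apoa1 at 54827 and 52987 in the Flox/Flox and L-Lpcat3 KO pools. In both pools the Y-linked Eif2s3y was well above the floor (2216 and 2398), as the labelled sex requires.

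CD36 is a membrane glycoprotein of the scavenger receptor class B family that binds long-chain fatty acids and oxidized lipoproteins and promotes fatty acid uptake. In the liver it is normally made in modest amounts by hepatocytes and also by sinusoidal endothelial cells and macrophages, and its transcription responds to PPAR, LXR, PXR and AhR. The SLC27 proteins, also called FATPs, join uptake to activation because they have acyl-CoA synthetase activity. The FABPs are small cytosolic proteins that hold fatty acids in solution between the plasma membrane, the endoplasmic reticulum, mitochondria, peroxisomes and the nucleus.

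Cd36 was higher in L-Lpcat3 KO on each of its 3 probe sets. The brightest had a signal of 589 in Flox/Flox against 1387 in L-Lpcat3 KO, a log2 ratio of 1.23 or 2.35-fold. The next had 507 and 1241, a log2 ratio of 1.29 or 2.45-fold. The dimmest had 108 and 264, which also gave a log2 ratio of 1.29. The L-Lpcat3 KO signal thus exceeded the Flox/Flox signal by more than 2-fold at 3 different brightness levels, and the 3 log2 ratios lay within 0.06 of one another. All 3 probe sets were annotated to 1 design accession and read the same pools, so they are repeat readings of 1 comparison and not replicates. By its brightest probe set, Cd36 ranked 16 from the top among the 10821 genes that exceeded the floor in each pool.

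Fabp2 encodes the intestinal fatty acid binding protein, which is best known from enterocytes. Its signal was 4087 in Flox/Flox against 7372 in L-Lpcat3 KO, a log2 ratio of 0.85 or 1.80-fold, which ranked 83 among the same 10821 genes. Fabp2 has 1 probe set, so no other reading of it exists on these arrays.

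Fabp1, the liver form and the main fatty acid carrier of the hepatocyte cytosol, was nearly the same in both pools. One probe set gave 54939 in Flox/Flox against 52236 in L-Lpcat3 KO (log2 ratio -0.07). The other gave 53788 and 50670 (log2 ratio -0.09). The highest signal on the Flox/Flox array was 60906, so Fabp1 lay close to the top of the measured range, and whether signals level off there was not tested.

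The 250 bases upstream of the annotated start are shown for these 3 genes because they had the 2 largest ratios of the members and, for Fabp1, the only one of the member windows with a near-complete peroxisome proliferator-type element. They are from RefSeq on GRCm38.p6 and run 5′ to 3′ on the strand of the gene. Capitals mark exact matches on either strand to AGGTCA (the half-site of many nuclear receptors), TATAAA and CCAAT, and a DR1, which is AGGTCA repeated with 1 base between, with at most 1 mismatch. The Cd36 window is chr5:17835897-17836146 on the minus strand, the Fabp2 window chr3:122894822-122895071 on the plus strand and the Fabp1 window chr6:71199629-71199878 on the plus strand.
Cd36: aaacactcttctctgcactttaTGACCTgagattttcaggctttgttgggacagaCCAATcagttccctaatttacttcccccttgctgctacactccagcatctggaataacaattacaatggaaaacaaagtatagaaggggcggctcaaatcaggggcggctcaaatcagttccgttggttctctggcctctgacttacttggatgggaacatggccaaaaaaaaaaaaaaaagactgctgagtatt
Fabp2: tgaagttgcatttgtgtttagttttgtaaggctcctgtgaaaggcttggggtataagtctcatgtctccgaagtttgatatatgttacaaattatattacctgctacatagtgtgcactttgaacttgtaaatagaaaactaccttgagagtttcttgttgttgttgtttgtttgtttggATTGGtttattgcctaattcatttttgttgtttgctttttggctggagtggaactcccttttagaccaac
Fabp1: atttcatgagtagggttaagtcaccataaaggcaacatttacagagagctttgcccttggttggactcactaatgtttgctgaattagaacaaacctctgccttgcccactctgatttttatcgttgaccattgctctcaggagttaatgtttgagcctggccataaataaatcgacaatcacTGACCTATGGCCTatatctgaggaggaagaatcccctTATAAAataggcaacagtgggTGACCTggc

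Promoter sequences were held for 6 of the 8 members in 8 windows, and Fabp4 and Fabp5 had no entry. Cd36 had an AGGTCA at -228 to -223, read on the opposite strand, and a CCAAT at -195 to -191. A DR1 with 2 mismatches, not in capitals, lay at -63 to -51. Fabp2 had a CCAAT at -70 to -66 on the opposite strand and no AGGTCA, DR1 or TATAAA. Fabp1 had a DR1 with 1 mismatch at -67 to -55, read on the opposite strand, in which the exact AGGTCA at -67 to -62 is the second repeat on that strand. It also had another AGGTCA on the opposite strand at -9 to -4 and a TATAAA on the strand of the gene at -30 to -25. Positions count back from the base before the annotated start. Of 32851 mouse promoter windows of the same length, 14.0% held AGGTCA, 0.484% a DR1 with at most 1 mismatch, 3.24% a DR1 with at most 2 mismatches, 12.4% TATAAA and 33.8% CCAAT. The member with the near-complete DR1 was thus Fabp1, whose ratio was close to 0. Slc27a2 had an AGGTCA at -220 to -215, Slc27a4 had none of these matches, and 2 of 3 windows of Slc27a1 had a CCAAT. No member window had a DR4 (the same repeats with 4 bases between) with at most 1 mismatch, which 0.240% of all windows held. A match is a description of letters and not evidence that a receptor binds there.

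Among the transport proteins, Slc27a2 (FATP2), which is also the very long-chain acyl-CoA synthetase of liver and kidney, had 33838 in Flox/Flox against 34903 in L-Lpcat3 KO (log2 ratio 0.04). Slc27a4 (FATP4), the form of intestine and skin, had 876 and 879 (0.00). Slc27a1 (FATP1), the insulin-responsive form of muscle and adipose tissue, gave 187 and 195 (0.06) by its brighter probe set. Its dimmer probe set gave 143 and 108 (-0.40), in the opposite direction. None of the 3 transport proteins was 1.5-fold apart on any probe set.

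Fabp5, the epidermal form that is also made by macrophages and liver, was slightly lower on both probe sets, with 13386 in Flox/Flox against 11830 in L-Lpcat3 KO (log2 ratio -0.18) and with 3988 and 3634 (-0.13). The probe sets of Fabp4, the form of adipocytes, macrophages and capillary endothelium, did not give 1 direction. The brightest had 644 in Flox/Flox against 776 in L-Lpcat3 KO (log2 ratio 0.27). The next had 264 and 173 (-0.61, 1.53-fold lower). Another, with 85.6 and 43.0, was under the floor in L-Lpcat3 KO, and the last was under it in both pools (63.1 and 43.9). No direction can be given for Fabp4 from these probe sets.

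**Figure D1:**
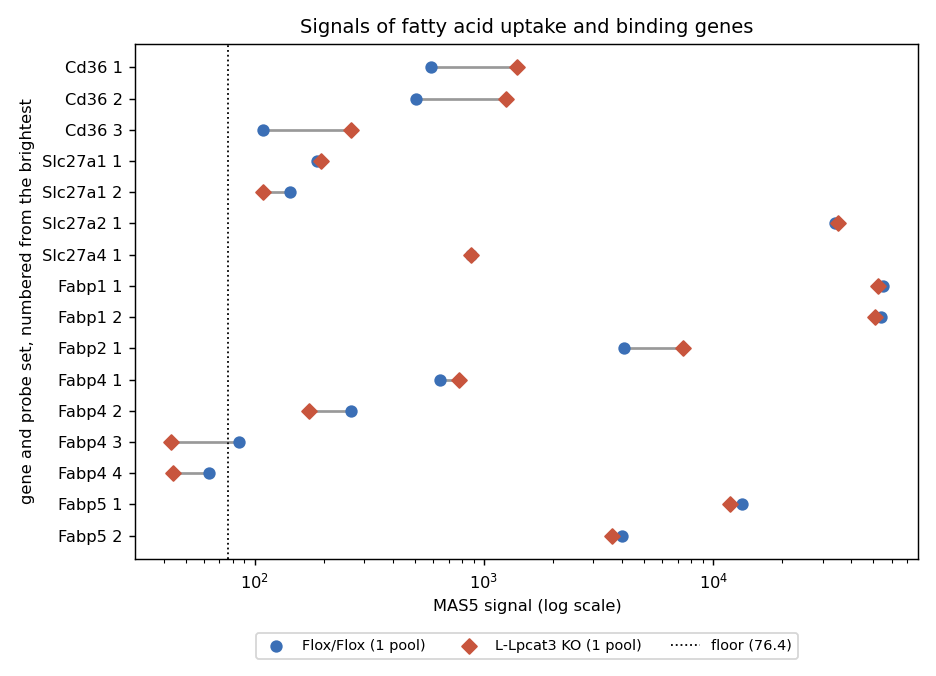
MAS5 signal (log scale) of every probe set of the 8 genes in the pool of Flox/Flox livers (circles) and of L-Lpcat3 KO livers (diamonds), 1 array each, with no error bars because there are no replicates. The dotted line is the floor of 76.4. The 3 Cd36 probe sets and that of Fabp2 are shifted to the right in L-Lpcat3 KO, while the 4 of Fabp4 are shifted in both directions.

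By brightest probe set, 2 of the 8 genes (25%), Cd36 and Fabp2, were at least 1.5-fold higher in L-Lpcat3 KO, beside 4% of the 12061 genes measured. None was at least 1.5-fold lower, beside 3.14% of all genes. Cd36 alone was at least 2-fold higher (12.5% of members), beside 0.556% of all genes. Nothing is read from these shares, since the members were picked with their ratios known. The other 6 genes had log2 ratios between -0.18 and 0.27, and the median over all 8 was 0.05, beside 0.00 over all measured genes. Of the 8 ratios, 6 lay above 0, beside 50.7% of all genes. Cd36 and Fabp2 thus stood apart from the other 6 genes in size.

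Dim genes vary more between arrays than bright ones, so each probe set was set beside the 500 measured genes nearest to it in mean signal. For the brightest Cd36 probe set, the central 95% of those genes had log2 ratios between -0.46 and 0.38, and none of the 500 had a ratio as large in size as 1.23. For the next it was also 0 of 500, with a range of -0.45 to 0.49. For the dimmest, 5 of 500 (1%) were as large, with a wider range of -0.75 to 0.89. For Fabp2, 2 of 500 genes (0.400%) were as large and the range was -0.29 to 0.33. All 4 of these probe sets lay outside the central 95% of genes of like signal.

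The remaining 11 measured probe sets lay inside it. For the third Fabp4 probe set (85.6 and 43.0) this was fixed by the floor. The floor held its log2 ratio at -0.16, beside a range of -0.26 to 0.26, and without the floor it was -0.99. Fabp1 (52.4% of like genes as large, by its brightest probe set) and Slc27a2 (68.6%) were compared with genes whose mean signals ran from 10432 to 53899, because few genes are as bright. The brightest probe sets of Fabp4 and Fabp5 had 17.8% and 17.6% of like genes as large, and the second Fabp4 probe set, with its ratio of -0.61, had 8.20% within a range of -0.71 to 0.70. For the dimmer Slc27a1 probe set the range was -1.11 to 1.21, so a difference of less than 2-fold would not stand apart at that signal. These shares describe the 2 arrays, do not measure variation among mice and support nothing about genes chosen with their ratios known.

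**Figure D2:**
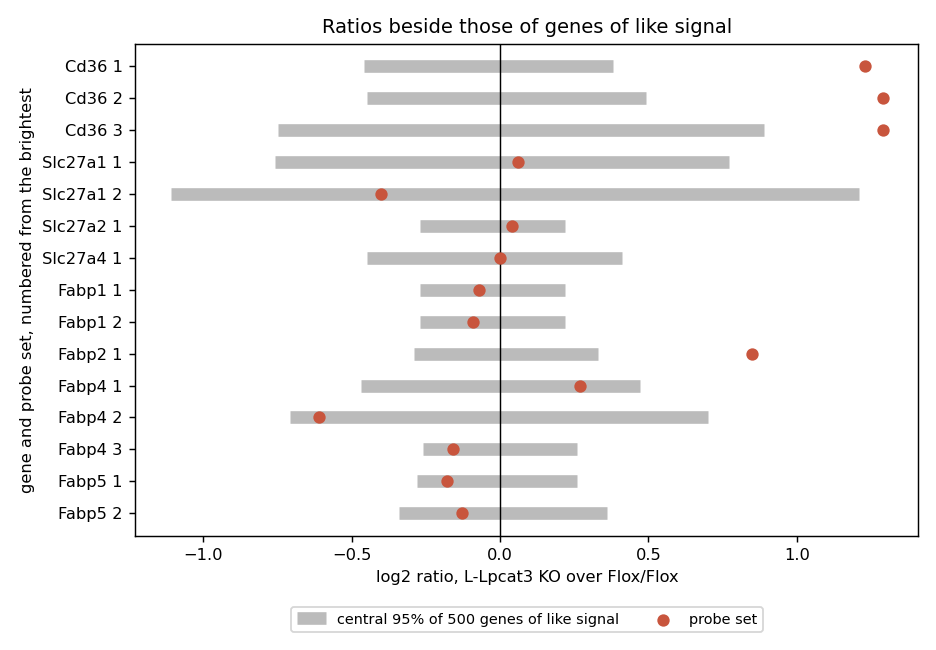
Log2 ratio (L-Lpcat3 KO over Flox/Flox) for the 15 measured probe sets of the 8 genes (points), with the central 95% of ratios of the 500 measured genes nearest in signal to each (grey bars). The points of Cd36 (1.23, 1.29 and 1.29) and Fabp2 (0.85) lie outside their bars and the other 11 inside. The third Fabp4 point could not lie outside on the lower side, because its L-Lpcat3 KO signal was raised to the floor.

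The likeness of the Cd36 readings is given as a description, since the gene was chosen with these same ratios known and nothing is read from its place among others. Of 1781 genes with at least 3 probe sets that exceeded the floor in each pool, 35 had a brightest probe set at least 1.5-fold apart. In 2 of them, Cd36 and the mitochondrial carrier gene Slc25a30 (log2 ratios from 0.74 to 1.15), every such probe set was at least 1.5-fold apart in the same direction. In 1 of them, Cd36, every such probe set was at least 2-fold apart. The median gene of the 1781 had a range of 0.43 between its highest and lowest log2 ratio, and 36 genes (2.02%) had a range no wider than that of Cd36.

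The 5 measured genes nearest to Cd36 in their pair of signals over both pools were Cyp4a31, Zap70, Inpp5j, Acot2 and Acot3, with distances from 0.28 to 0.40 in log2 units over 2 arrays. Cyp4a31, a fatty acid omega-hydroxylase, had 715 in Flox/Flox against 1432 in L-Lpcat3 KO, and its other probe set gave a log2 ratio of 0.36. The acyl-CoA thioesterases Acot2 and Acot3, which release fatty acids from coenzyme A in mitochondria and peroxisomes, had log2 ratios of 0.69 and 0.87. The other Acot2 probe set gave 1.21, with 76.0 in Flox/Flox, just under the floor, against 176 in L-Lpcat3 KO. Zap70, a T cell receptor kinase, had 1.34, but its other probe sets gave -0.48 and 0.36. Inpp5j, an inositol phosphatase, had 0.78. The Acot and Cyp4a families hold near-identical copies, and probe sets may read more than 1 of them.

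Other genes of the same families were taken from a list of 11, of which 10 had a probe set and 5 were measured. None was at least 1.5-fold higher and 1 was lower, beside 4% and 3.14% of all measured genes, and the median log2 ratio was -0.04. Slc27a5 (FATP5), the liver form that also activates bile acids, had 23078 in Flox/Flox against 24444 in L-Lpcat3 KO (0.08). Scarb2, a lysosomal relative of CD36, gave 0.17. Scarb1, the HDL receptor and the nearest family member at the hepatocyte surface, had 3005 and 2923 (-0.04). Fabp7, the brain form, was the lower one (147 and 82.4, log2 ratio -0.83), with a signal just above the floor in L-Lpcat3 KO. Slc27a3, Fabp6, Pmp2, Fabp9 and Fabp12 were below the floor in both pools. Of the CD36 family and the transport and binding proteins measured here, the genes at least 1.5-fold higher were therefore Cd36 and Fabp2.

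The steps that follow or surround uptake showed no gene past 1.5-fold by its brightest probe set. Over all measured genes 4% were that much higher and 3.14% lower, so 0 in lists this short is close to those shares. In the list of fatty acid activation and acyl-CoA carriers, 0 of 13 measured genes were that far apart and the median log2 ratio was 0.03. Dbi, the acyl-CoA binding protein, had 39176 in Flox/Flox against 38078 in L-Lpcat3 KO, and Scp2, a peroxisomal lipid carrier and thiolase, 35531 and 35406. The dimmest of the 4 Scp2 probe sets differed from this, with 795 in Flox/Flox against 2005 in L-Lpcat3 KO (log2 ratio 1.33), while the others gave -0.15 and -0.30. A dim probe set of Got2 had 130 in Flox/Flox against 81.5 in L-Lpcat3 KO (-0.68, 1.60-fold lower), while its brightest gave -0.04. Acsl1, a major acyl-CoA synthetase of the liver, had no probe set named for it here. Genes of lipolysis at the cell surface, which supply fatty acids from lipoproteins, were within 1.5-fold in 7 of 7 measured, with a median of 0.23 and log2 ratios from -0.07 to 0.44. Their brightest members, the lipoprotein lipase inhibitor Angptl4 and the remnant receptor Lrp1, had 0.01 and -0.07.

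Genes for CD36 palmitoylation, caveolae and the Src kinases that CD36 signals through were listed together with Insig2, which is none of these. Beside 4% higher and 3.14% lower over all measured genes, 9 of 9 genes of the list were within 1.5-fold by brightest probe set. Their median was 0.01 and their log2 ratios ran from -0.50 to 0.55. The brightest were Selenok, a cofactor of CD36 palmitoylation (-0.01), and Lypla1, a thioesterase that removes palmitate from proteins (-0.14). Insig2 had the ratio of 0.55, and its other probe sets gave 0.70 (2162 in Flox/Flox against 3522 in L-Lpcat3 KO, 1.63-fold) and 0.27. Yes1 had 0.17, while dimmer probe sets gave -0.53 and 0.75. The transcript level of Cd36 says nothing of how much CD36 protein reached the plasma membrane, which was not measured here.

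Of 11 measured genes for receptors and cofactors known to act on the Cd36 promoter, 2 were at least 1.5-fold higher and 0 lower. Over all measured genes these shares were 4% and 3.14%. The median was 0.12, beside 0.00 over all genes. Pparg, the adipogenic receptor that is low in normal liver, had 213 in Flox/Flox against 377 in L-Lpcat3 KO (log2 ratio 0.82) by 1 probe set. Ppard had 91.8 and 150 (0.71), near the floor. Ppara, the main fatty acid receptor of hepatocytes, had 4958 and 5229 (0.08), and its partner Rxra 5414 and 5104 (-0.09). Of the 500 genes nearest in signal, 13 (2.60%) had a ratio as large as that of Pparg and 112 (22.4%) as large as that of Ppard, so the Ppard difference was of a size common at its signal.

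Known targets of those receptors differed between lists. Of 32 measured PPARα targets, 8 were at least 1.5-fold higher and 0 lower, 30 had a ratio above 0, and the median was 0.17, beside 4% higher and a median of 0.00 over all genes. Cyp4a14, another omega-hydroxylase, had 3507 in Flox/Flox against 15684 in L-Lpcat3 KO, a log2 ratio of 2.16. Fgf21, a fasting hormone, was under the floor in Flox/Flox but 236 in L-Lpcat3 KO, at least 3.09-fold higher against the floor. Abcd2, a peroxisomal fatty acyl transporter, was at least 2.78-fold higher by the same reckoning, and another probe set gave 0.14. The brightest members, the thiolase Acaa1b and the peroxisomal transporter Abcd3, both had 0.10. Cd36, Fabp1 and Slc27a2 are themselves textbook targets of PPARα in rodent liver but are not in this list, and their log2 ratios were 1.23, -0.07 and 0.04.

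The median log2 ratio of the 8 measured genes of hepatic PPARγ action and lipid storage was 0.46, beside 0.00 over all genes. Of the 8, 3 were at least 1.5-fold higher and none lower, beside 4% and 3.14% of all genes. Besides Pparg, these were the lipid droplet protein Cidec, under the floor in Flox/Flox but 164 in L-Lpcat3 KO (at least 2.15-fold), and the acyltransferase Mogat1, under it and 147 (at least 1.93-fold). G0s2, an inhibitor of lipolysis, had 7933 and 11352 (0.52), and Fitm2, which acts in droplet formation, 0.36. All of the genes past 1.5-fold in this list were dim or under the floor in Flox/Flox. Cidec and Mogat1 were measured through L-Lpcat3 KO alone, so their direction was fixed, and 6 of the 8 were above the floor in both pools. Cidea, Aqp7, Adipoq and Mogat2 were below the floor in both pools.

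The LXR, PXR/CAR and AhR lists had medians of 0.07, 0.10 and 0.08, beside 0.00 over all measured genes. Of all measured genes, 4% were at least 1.5-fold higher and 3.14% lower. Of 15 LXR targets, 3 were higher and 1, Lpcat3 itself, lower. Pltp, the phospholipid transfer protein, had 2755 in Flox/Flox against 6409 in L-Lpcat3 KO (1.22, with 0.69 on its other probe set), Rgs16, a G protein regulator, had 0.75 (with 0.71 and -0.35 on its other probe sets), and Abcd2 is also in this list. Scd1 and Apoe, its brightest genes, had -0.02 and -0.08. Of 14 PXR and CAR targets, Cyp2b10 (116 and 286, log2 ratio 1.30) and the drug exporter Abcb1a (0.86) were higher. Other probe sets of Cyp2b10 gave 0.22 and -0.55. Abcb1a was near the floor, with 80.7 in Flox/Flox against 147 in L-Lpcat3 KO. The major target Cyp3a11 had -0.02. Of 4 AhR targets, the quinone reductase Nqo1 was higher (0.79), and the classical target Cyp1a2 had -0.11. Each of the 5 receptor target lists thus had members at least 1.5-fold higher. They were 8 of 32 PPARα, 3 of 8 PPARγ and lipid storage, 3 of 15 LXR, 2 of 14 PXR and CAR and 1 of 4 AhR genes. The lists are of unlike length, so these counts do not rank the receptors. Ratios lay above 0 in 30 of 32 PPARα targets and 8 of 8 PPARγ and lipid storage genes. They did so in 9 of 15 LXR, 8 of 14 PXR and CAR and 3 of 4 AhR targets, beside 50.7% of all genes. Genes at the floor in Flox/Flox were counted through L-Lpcat3 KO alone, so their direction was fixed. In these lists they were Fgf21, Abcd2, Cidec, Mogat1 and Cyp2b13. Plin4, counted as above 0, had 784 in Flox/Flox against 785 in L-Lpcat3 KO (0.00).

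**Figure D3:**
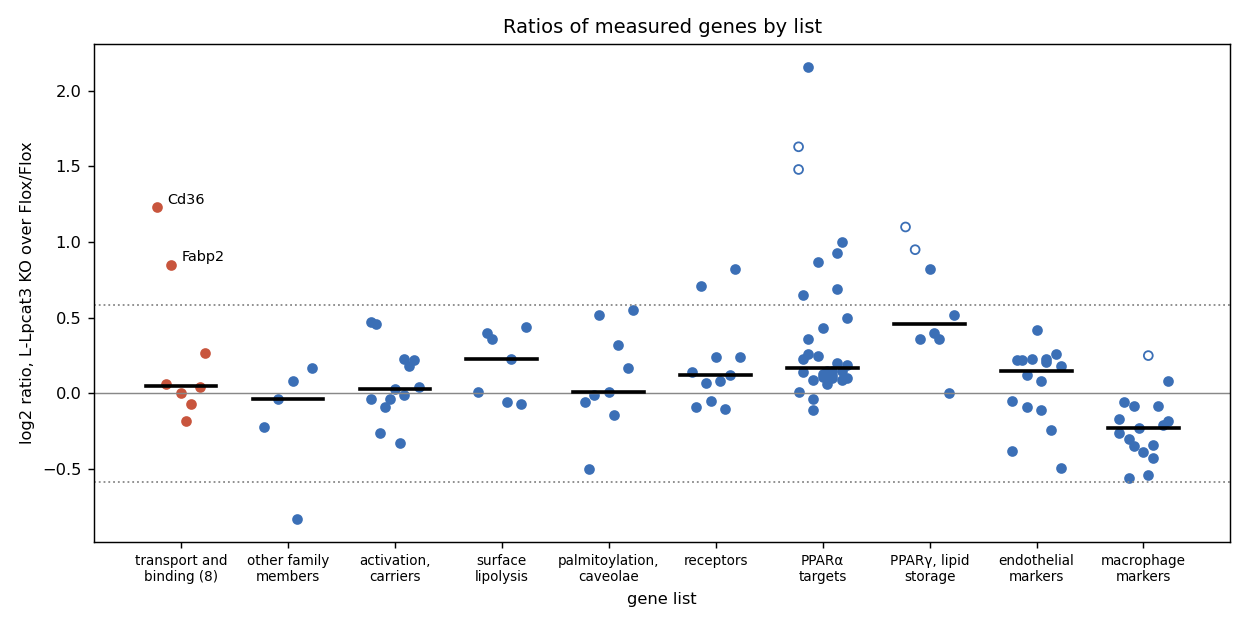
Log2 ratio (L-Lpcat3 KO over Flox/Flox) for each measured gene, by its brightest probe set, in 10 gene lists (1 point a gene, open where 1 pool was at the floor, black line at the median, dotted lines at 1.5-fold in either direction). Cd36 and Fabp2 stand above the other 6 transport and binding genes, and no gene of the activation, lipolysis or palmitoylation lists passes the dotted lines.

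Cd36 is higher in females than in males in rodent liver, and so the lists of sex-biased liver genes were read too. Of 20 female-biased genes, 15 had a probe set and 10 were measured. Cyp2b9 (39.2 and 35.1), Cyp3a16, Sult3a1, Hao2 and Prom1 were below the floor in both pools. The summed signal of the list was 6927 in Flox/Flox against 21007 in L-Lpcat3 KO, most of it Cyp4a14. Of the 10 measured genes, with a median of 0.50, 5 were at least 1.5-fold higher and 1 lower. Over all measured genes these shares were 4% and 3.14%. The higher ones were Cyp4a14, Abcd2, Cyp17a1 (776 and 1574, log2 ratio 1.02), Acot3 and Tox (0.67), and 3 of them are also in the PPARα list. The lower one was Cyp3a44 (-0.64). Of 16 male-biased genes, 0 were higher and 1 lower, Moxd1 (4707 and 2198, -1.10), with a median of -0.13. Y-linked signals were alike in both pools, and the part of a shift in sex-biased genes in the Cd36 ratio was not tested.

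Cd36 and the FABPs are made by several cell types, and in a whole liver fewer cells of a type and less RNA per cell cannot be told apart. Endothelial markers were within 1.5-fold in 16 of 16 genes, with a median of 0.15 and a summed signal of 11657 in Flox/Flox against 13142 in L-Lpcat3 KO, a ratio of 1.13. Kupffer cell and macrophage markers were within 1.5-fold in 17 of 17 measured genes, 15 of them below 0, with a median of -0.23 and a summed signal of 24646 and 23004 (ratio 0.933). Among all measured genes 4% were at least 1.5-fold higher and 3.14% lower, so 0 in lists this short is close to those shares. The part of endothelial cells or macrophages in the Cd36 ratio was not tested.

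Platelets also carry CD36. Their markers were dim, with 5 of 10 measured, all with a ratio above 0 (median 0.33). The summed signal was 766 in Flox/Flox against 1062 in L-Lpcat3 KO (ratio 1.39). Gp1bb (0.76) and Gp5 (51.4 and 115, at the floor in Flox/Flox) were at least 1.5-fold higher, beside 4% of all measured genes. Gp5 and Ppbp (53.9 and 94.0) were measured through L-Lpcat3 KO alone, so their direction was fixed. Pf4 and Itga2b, the brightest of the platelet markers, had log2 ratios of 0.33 and 0.13. The part of platelet RNA in the Cd36 ratio was not tested.

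For adipose tissue, which makes Cd36 and Fabp4, the defining markers Adipoq (61.8 and 9.21) and Lep (4.17 and 2.91) were below the floor in both pools. Of 10 adipocyte markers 4 were measured, all with a ratio below 0 (median -0.12), and the summed signal was 78582 and 72789, nearly all of it Car3 and Pck1, which hepatocytes also make. For the intestine, the main site of Fabp2, the enterocyte genes Vil1 (13.1 and 11.7) and Cdx1 (3.85 and 4.02) were likewise below the floor. Cdx2 was under it in Flox/Flox (54.2) and just above it in L-Lpcat3 KO (81.8), and its other probe set was under it in both pools. Lgals4 was well above the floor and alike in both pools (1187 and 1153). Beside 4% higher and 3.14% lower over all measured genes, 1 of 8 measured enterocyte markers was past 1.5-fold. This was Apoa4, an apolipoprotein that liver makes too, with 3031 in Flox/Flox against 5241 in L-Lpcat3 KO (0.79, and 0.80 on its other probe set). The list had a median of -0.03 and a summed signal of 8982 and 11042, and its other bright gene Cdhr5 had -0.04.

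For the other tissues in which these genes are known, few markers were above the floor. Striated muscle, a main site of Slc27a1, had 3 of 12 markers measured (median 0.11, summed signals 394 and 508). Keratinocytes, a main site of Fabp5 and Slc27a4, had 2 of 8 with a probe set for 7 (median -0.12, summed signals 432 and 422). Stellate cell markers had 12 of 14 measured with a median of 0.04, and 1, the collagen gene Col3a1, was lower (1758 and 1151, log2 ratio -0.61). Bile duct markers had 3 of 8 measured, all dim. Epcam was higher, with 58.4 in Flox/Flox, under the floor, against 128 in L-Lpcat3 KO. Sox9 was lower, with 162 in Flox/Flox against 77.6 in L-Lpcat3 KO, just above the floor. The stellate and bile duct counts past 1.5-fold stand beside 4% higher and 3.14% lower over all measured genes. Among 10 measured reference genes such as Actb and Hprt, none was 1.5-fold apart and the median was 0.01.

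The Cd36 and Fabp2 differences changed little with the way the arrays were scaled, floored and summarised. Cd36 had log2 ratios from 1.19 to 1.29 over 10 alternatives and Fabp2 from 0.84 to 0.86 over the 9 that apply to a gene with 1 probe set. Slc27a2 and Slc27a4 stayed between 0.00 and 0.10. Fabp1 ranged from -0.09 to -0.01 and Fabp5 from -0.19 to -0.13. The choice of probe set mattered for Slc27a1, which had -0.40 by its second probe set, and for Fabp4, which ranged from -0.61 to 0.28 and changed direction.

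**Figure D4:**
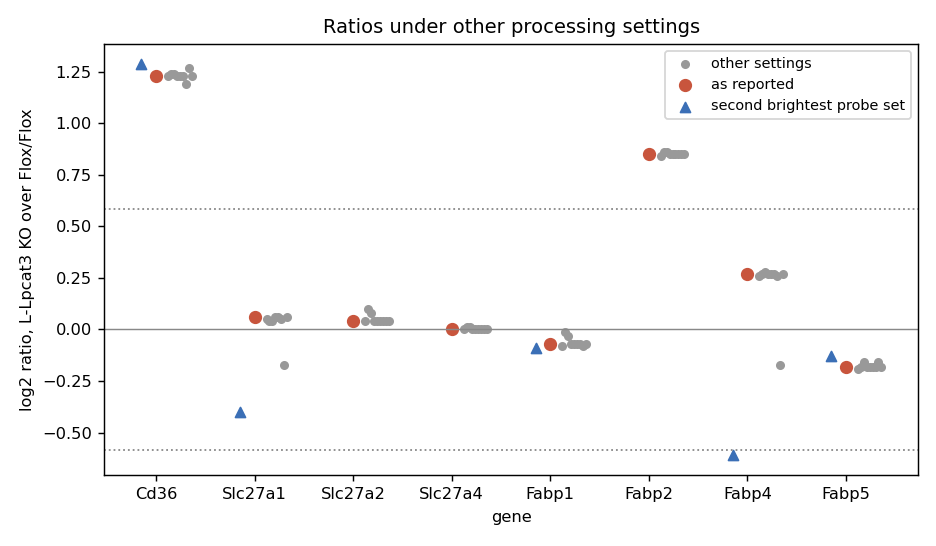
Log2 ratio (L-Lpcat3 KO over Flox/Flox) of each of the 8 genes as reported (large circles), by the second brightest probe set where there is one (triangles) and under the other scalings, floors and gene summaries (small grey points), with dotted lines at 1.5-fold in either direction. The points of Cd36 stay between 1.19 and 1.29 and those of Fabp2 between 0.84 and 0.86, while the triangle of Fabp4 lies at -0.61.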

How the data were processed

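Liver RNA of 1 pool per genotype was hybridised to Affymetrix Mouse Genome 430 2.0 arrays, and the authors deposited signal intensities on a linear scale, 1 for each probe set. The submitters' processing notes name MAS5 without a version. After trimming 2% of signals at each end, both arrays had a mean of 500.0, so a common scaling preceded deposit. Depth has no meaning here, and the number of arrays (1 per group) limits the precision. Detection calls were not used.

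Symbols came from the platform annotation, updated through gene IDs to RefSeq (GRCm38.p6), which gave 34945 probe sets 1 symbol. The 64 control probe sets were left out of the floor. A gene was measured if its brightest probe set (highest mean log2 signal) exceeded the floor of 76.4 in at least 1 pool, which held for 12061 of 18193 genes. Where 1 pool was at the floor, the fold is a lower bound for that floor. Such a gene was measured through the other pool alone, so the direction of its ratio was fixed in advance. Sizes of 1.5-fold and 2-fold were counted without a test. The members and the gene lists were chosen with earlier results of these data known. Named besides the members are, from each list, up to 4 measured genes furthest past 1.5-fold and the 2 brightest, the 5 genes nearest to Cd36, and Lpcat3. Defining markers, sex-linked genes and genes below the floor, Slc25a30 and Acsl1 were named in addition, after their values were seen. So were some other list genes, such as Cdx2, Lgals4, Insig2 and Yes1. Scalings, floors, a pseudocount of 32 and gene summaries were varied. Scripts were tested on simulated data. Calculations used numpy 2.4.6, pandas 2.3.3 and statsmodels 0.14.6 under Python 3.11.15, and plots matplotlib 3.10.9.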

Additional observations from a re-analysis of the deposited data

How the results depend on the processing

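With 1 pool per genotype, nothing here measures variation among mice, and all sizes describe these pools. No paired analysis was possible because each group is 1 array. By the second brightest probe set, which 5 of the 8 genes have, the log2 ratio of Fabp4 turned from 0.27 to -0.61 (-0.17 by the mean over its probe sets), the median of the members moved from 0.05 to -0.13, 1 member (Cd36) was at least 1.5-fold higher and 1 (Fabp4) lower. Fabp2 has no second probe set, which by itself takes it from that count. At a size of 2-fold, 1 member was higher. Members other than Fabp4 were on the same side of 1.5-fold under every alternative that gave them a value, although Slc27a1, near 0 as reported (0.06), had -0.40 by its second probe set and was also below 0 by the mean over its probe sets. A floor at the 75th percentile (386) left Slc27a1 unmeasured. Over all genes, the counts past 1.5-fold depended on the floor and the probe sets used. As reported 483 were higher and 379 lower. They were 1768 and 1381 when the 25th percentile was the floor, 57 and 59 when it was the 75th, without a floor or filter 2721 and 2356, and by second brightest probe sets 235 and 197. The scalings moved the median log2 ratio of all genes by at most 0.01.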
